A study of Mus musculus with 6 samples.

Results

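The genes described here encode the AKT kinases and the proteins that switch AKT on or that AKT switches off. They were chosen by name. Akt1 and Akt2 are the kinases, Pdpk1 and Rictor belong to the upstream arm, and Gsk3a, Gsk3b, Tsc1 and Tsc2 belong to the downstream arm. All 8 were measured, among 20416 genes on the arrays, and all 8 were among the 15312 genes bright enough to be tested. They were read by 176 probe sets that the platform annotation gives to that gene alone, between 7 for Gsk3a and 44 for Tsc2.

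Hepatocytes came from adult C57BL/6 mice in 2 groups of 3. The miR-143DOX mice carried a transgene from which doxycycline induces the microRNA miR-143. The control mice were wildtype littermates. Every animal of both groups drank doxycycline at 4 mg/ml with 10% sucrose for 8 days, so the drug and the sugar were common to the groups and the transgene was the difference. The promoter of the transgene and the cells in which it is active are not given in the sources used here. Each mouse gave 1 Affymetrix array, and arrays read transcript levels only, not phosphorylation or kinase activity.

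Insulin reaches AKT through PI3-kinase, which makes a membrane lipid that AKT binds. At the membrane AKT is phosphorylated by PDK1, the product of Pdpk1, and by mTORC2, the kinase complex that needs RICTOR. Active AKT phosphorylates and inhibits the GSK3 kinases, which lets glycogen synthesis proceed. It also inhibits the TSC1-TSC2 complex, which releases the small GTPase RHEB to activate mTORC1. In liver AKT2 is the main AKT isoform of the response of glucose and lipid metabolism to insulin.

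Between any pair of arrays, Pearson's r over probe sets lay between 0.936 and 0.954. The 13 tested hepatocyte markers, such as albumin and transthyretin, had a median level at percentile 99.8 of all genes tested. The same percentile was 60.9 for 10 Kupffer cell markers, 64.3 for 10 sinusoidal endothelium markers, 49.95 for 10 stellate cell and fibroblast markers and 32.1 for 4 cholangiocyte markers. Only 5 of 10 lymphocyte markers and 1 of 6 neutrophil markers were bright enough to test, at percentiles 13.98 and 8.18. The mean level of the endothelial markers ran from 7.41 to 7.88 in miR-143DOX arrays and from 7.68 to 7.83 in control arrays (log2), with 8 of 10 below 0 in the difference and a median of -0.11. For the Kupffer markers it ran from 7.03 to 7.37 in miR-143DOX arrays and from 7.12 to 7.20 in control arrays, with 8 of 10 above 0 in the difference and a median of 0.070. The AKT pathway genes are used in all of these cell types, and the part of other cells in their values was not tested.

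None of the 8 genes differed between miR-143DOX and control hepatocytes beyond the spread between mice. In limma's moderated test 0 of 8 passed a false discovery rate (FDR) of 5%, where 0% of all genes tested passed, and 0 of 8 had an unadjusted p under 0.05, against 3.06% of all genes. In each of the 8 the values of the groups overlapped. Over all genes tested, 7.13% had groups that did not overlap. The differences lay between -0.29 for Gsk3a and 0.027 for Tsc2 (log2, miR-143DOX minus control), with 6 of 8 below 0 and a median of -0.095. Over all genes 47.6% lay below 0, the median was 0.0083, and the median size of a difference was 0.099. The adjusted p of every one of the 8 was 0.9997.

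**Figure D1:**
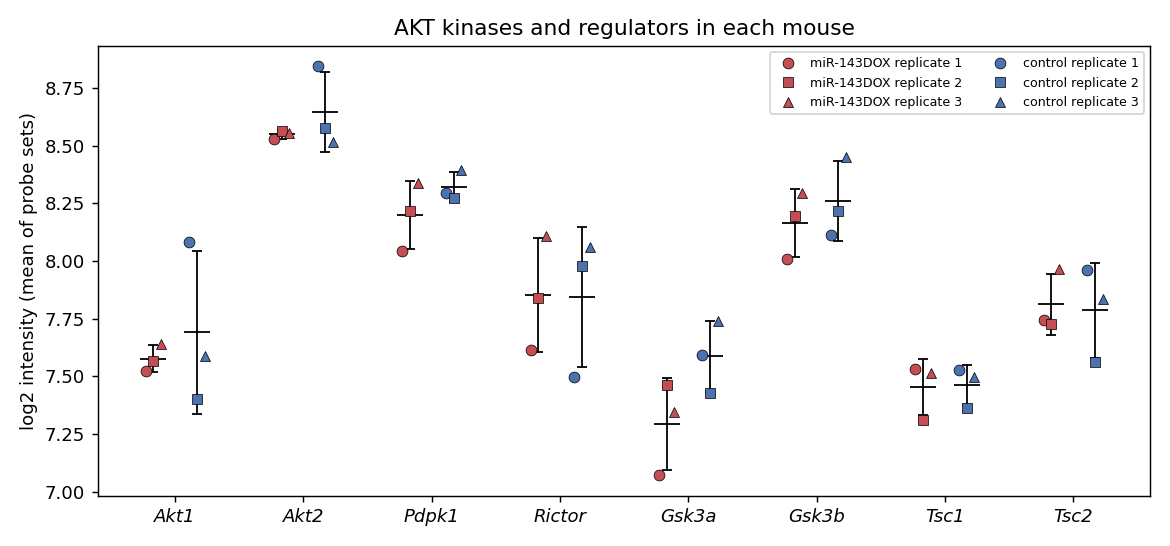
The log2 intensity of each gene (mean of its probe sets) in each of 6 mice, with miR-143DOX in red to the left and control in blue to the right. Bars show the mean and SD of 3 mice, and marker shapes give the replicate number. The groups overlap for every gene, and the control mouse with replicate number 1 stands highest for Akt1 and Akt2 and lowest for Rictor.

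Of the kinases themselves, Akt1 encodes the isoform tied mostly to growth and survival. It stood at 7.52, 7.57 and 7.64 in the miR-143DOX mice with replicate numbers 1 to 3, against 8.08, 7.40 and 7.59 in the control mice with these numbers (log2 intensity). The miR-143DOX values lay close together inside the range of the control values, which was set by the high value of control replicate 1. The means were 7.58 ± 0.06 in miR-143DOX and 7.69 ± 0.35 in control (SD, n = 3 each), a difference of -0.11 with a standard error of 0.17 and a 95% interval of -0.49 to 0.26. In ratio terms the interval allows Akt1 in miR-143DOX at 0.712 to 1.2 times its control level. Without control replicate 1 the sign turned, to a difference of 0.082. In these bulk arrays, fewer cells of a type and less RNA per cell cannot be told apart.

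Akt2 stood at 8.53, 8.57 and 8.56 in the miR-143DOX mice and at 8.84, 8.58 and 8.52 in the control mice. Here too control replicate 1 was the highest of the 6 arrays and the other control mice lay at the level of the miR-143DOX mice. The difference was -0.097 (95% interval -0.40 to 0.20), or 0.0022 without control replicate 1. The spread among control mice exceeded that of 92% of all genes tested for Akt1 and of 56.3% for Akt2. The spread among miR-143DOX mice exceeded that of 8.29% of genes for Akt1 and 0.905% for Akt2. Whether the spreads of the groups differ was not tested.

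Control replicate 1 was the highest array for 9 of 16 probe sets of Akt1 and for 6 of 8 of Akt2, so its high level was read by most of the probe sets of both genes and not by a single one. Part of it in Akt1 came from 1 dim probe set (mean level 4.23, under the filter for probe sets). That probe set read 6.475 in control replicate 1 and 3.660 to 3.945 in the other arrays. Without it the difference of Akt1 was -0.072. Over the 6 arrays Akt1 and Akt2 correlated at Pearson r of 0.89 (Spearman rho 0.14). Without the 2 arrays farthest from the median of Akt1, r was 0.32 over 4 arrays. Leaving out the extreme arrays narrows the range of Akt1, so this r cannot show whether the relation rests on them. The balance of the kinases, Akt1 minus Akt2 within each array, differed between the groups by -0.017 (exact two-sided permutation p = 1.0, n = 3 each, where the smallest possible p is 0.1).

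Upstream of AKT, Pdpk1 encodes the kinase that phosphorylates its activation loop. Pdpk1 stood at 8.04, 8.22 and 8.34 in the miR-143DOX mice and at 8.29, 8.27 and 8.39 in the control mice. The lowest values were 2 miR-143DOX mice, while the miR-143DOX mouse with number 3 lay among the control mice. The difference was -0.12 with a standard error of 0.13 (95% interval -0.42 to 0.17), and -0.044 without miR-143DOX replicate 1. Of its 16 probe sets 13 lay below 0 and 3 above.

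Rictor encodes the subunit that defines mTORC2, which phosphorylates the C-terminal hydrophobic motif of AKT. It stood at 7.61, 7.84 and 8.11 in the miR-143DOX mice and at 7.50, 7.98 and 8.06 in the control mice. Each group had mice at both ends of the range, with the lowest value of each in its mouse numbered 1. The difference was 0.0071 with a standard error of 0.18, which exceeded in size that of 3.89% of all genes tested. Its 95% interval of -0.39 to 0.40 allows 0.764 to 1.32 times the control level. Control replicate 1, highest for Akt1 and Akt2, was lowest for Rictor and was the lowest array for 18 of its 40 probe sets. Without that mouse the difference was -0.17.

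Downstream, Gsk3a showed the largest difference of the 8. GSK3α and GSK3β phosphorylate glycogen synthase and hold it inactive until AKT inhibits them. Gsk3a stood at 7.07, 7.46 and 7.35 in the miR-143DOX mice and at 7.59, 7.43 and 7.74 in the control mice. Only miR-143DOX replicate 2 reached the control values, just above control replicate 2. The means were 7.29 ± 0.20 in miR-143DOX and 7.59 ± 0.15 in control (SD, n = 3 each), and the difference of -0.29 (standard error 0.15, 95% interval -0.62 to 0.033) exceeded in size that of 93.4% of all genes tested. Its unadjusted p in limma was 0.0738.

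The size of that difference depended on few probe sets. Of the 7 probe sets of Gsk3a, 5 lay below 0, and 1 dim one (mean level 4.57, under the filter for probe sets) stood at -1.46. Without it the mean over the other probe sets was -0.10, and the brightest probe set, at a mean level of 8.67, gave -0.065. Another 5 probe sets are given by the annotation to Gsk3a together with other symbols and were kept out of its value. Their mean was 7.18 in miR-143DOX and 7.21 in control, a difference of -0.030. With 1 mouse left out at a time the difference of Gsk3a ran from -0.38, without miR-143DOX replicate 2, to -0.18, without miR-143DOX replicate 1.

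Gsk3b stood at 8.01, 8.20 and 8.29 in the miR-143DOX mice and at 8.11, 8.22 and 8.45 in the control mice. The values of the groups were interleaved, and the difference was -0.094 (95% interval -0.41 to 0.22). The mean and the median over its probe sets had opposite signs. Of 16 probe sets 11 lay above 0, with a median probe set difference of 0.088, while a dim pair at mean levels of 5.99 and 5.61 stood at -1.66 and -1.16. The second of these read 4.62, 5.51 and 4.96 in the miR-143DOX mice and 5.87, 6.26 and 6.46 in the control mice, with no overlap, and its unadjusted p was 0.00472 (limma, adjusted p = 0.997 over all probe sets). The balance of Gsk3a minus Gsk3b differed between the groups by -0.20 (exact two-sided permutation p = 0.2, n = 3 each), and by -0.0060 when probe sets below the filter were left out before the mean.

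**Figure D2:**
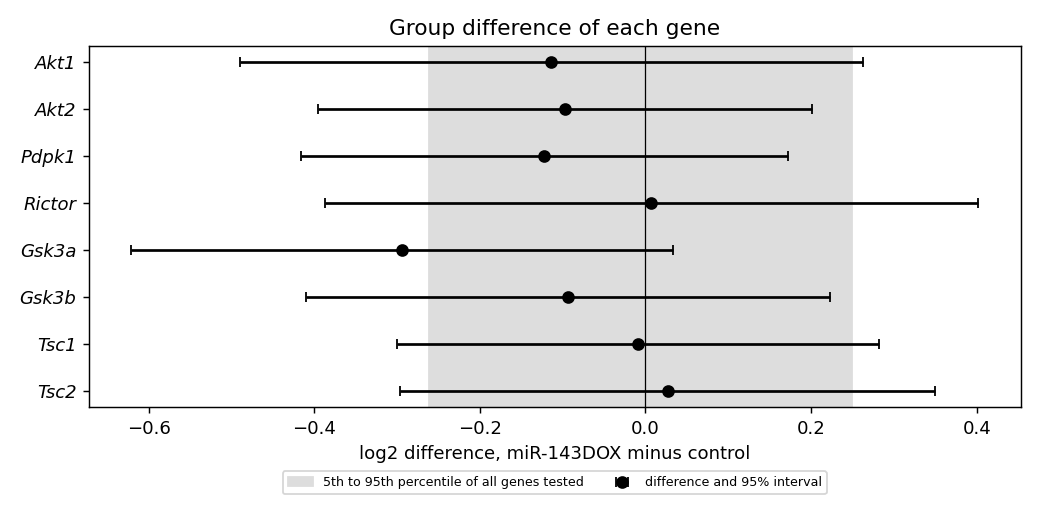
The difference of each gene (log2, miR-143DOX minus control) with its 95% interval from limma. The grey band spans -0.26 to 0.25, the 5th to the 95th percentile of the differences of all genes tested. All intervals contain 0, and Gsk3a alone has its difference outside the band.

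Tsc1 and Tsc2 encode hamartin and tuberin, which together restrain mTORC1. Tsc1 stood at 7.53, 7.31 and 7.52 in the miR-143DOX mice and at 7.53, 7.36 and 7.50 in the control mice, nearly the same set of values in both groups. Its difference was -0.0093 with a standard error of 0.13 (95% interval -0.30 to 0.28). Tsc2, the direct target of AKT in the complex, stood at 7.74, 7.73 and 7.96 in the miR-143DOX mice and at 7.96, 7.56 and 7.83 in the control mice. The highest miR-143DOX and the highest control mouse were level, and the difference was 0.027 (95% interval -0.30 to 0.35). The balance of Tsc1 minus Tsc2 differed by -0.036 (exact two-sided permutation p = 0.7, n = 3 each).

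The probe sets were also tested singly, since each reads its own stretch of a transcript. Where each probe set lies in its gene was not used here. Of the 176 probe sets 170 were bright enough to test. In limma 0 of these 170 passed 5% FDR, against 0% of 159073 probe sets in all. At an unadjusted p under 0.05 there were 8, or 4.71%, against 4.17% of all probe sets. In 14, or 8.24%, the groups did not overlap, against 8.88% of all. Both shares were near those of the arrays as a whole. The 8 probe sets at an unadjusted p under 0.05 numbered 4 without miR-143DOX replicate 2, 5 without miR-143DOX replicate 1 or control replicate 3, and 13 without miR-143DOX replicate 3.

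Those 8 probe sets were spread over 5 genes. Rictor had 3 of them, all lower in miR-143DOX, Gsk3b had 2 lower, Tsc1 and Akt2 had 1 lower each, and Tsc2 had 1 higher. The Rictor probe set with the smallest p read 6.81, 6.29 and 7.06 in the miR-143DOX mice and 7.27, 7.88 and 8.30 in the control mice, a difference of -1.10 (limma, unadjusted p = 0.0114, adjusted p = 0.997). All 3 miR-143DOX mice lay below all control mice in it. Yet 25 of the 40 Rictor probe sets lay above 0, with a median of 0.11, and the brightest one went the other way, at 9.69, 9.89 and 9.63 in the miR-143DOX mice against 9.59, 9.62 and 9.39 in the control mice.

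For Tsc2, the probe set with the smallest p read 8.30, 8.23 and 8.10 in the miR-143DOX mice and 7.80, 7.83 and 7.11 in the control mice, with no overlap and a difference of 0.63 (limma, unadjusted p = 0.0411, adjusted p = 0.997). The probe sets of Tsc2 as a whole were split, 23 above 0 and 21 below. The Tsc1 probe set with the smallest p differed by -1.60 at a mean level of 6.05, and its groups overlapped, at 4.48, 4.84 and 6.41 in the miR-143DOX mice and 7.27, 6.88 and 6.40 in the control mice. The brightest probe set of Tsc1 differed by -0.092. For Akt2 the probe set with the smallest p differed by -0.93 at a mean level of 6.16, and the brightest, at 9.85, by 0.058.

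**Figure D3:**
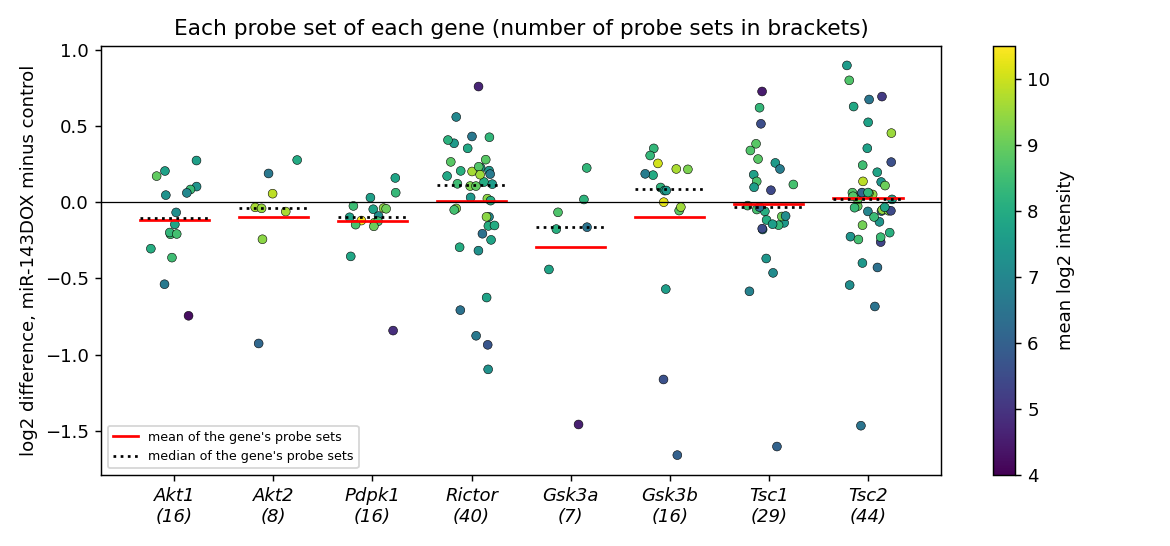
The difference of every probe set of every gene (log2, miR-143DOX minus control), coloured by its mean log2 intensity, with the mean (red line) and median (dotted line) over the probe sets of the gene. Most probe sets lie within 0.5 of 0, and those below -1 have mean levels of 4.57 to 7.27. For Gsk3b the lines lie on opposite sides of 0.

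In all 8 genes the probe set furthest from 0 was lower in miR-143DOX, from -0.75 in Akt1 to -1.66 in Gsk3b. Those of Akt1, Pdpk1 and Gsk3a were under the filter for probe sets, at mean levels of 4.23, 4.87 and 4.57. The Akt1 one read 3.787, 3.842 and 3.945 in the miR-143DOX mice and 6.475, 3.660 and 3.675 in the control mice. In it only control replicate 1 lay above the miR-143DOX mice. The Tsc2 one read 3.504 in miR-143DOX replicate 1 and 6.134 or more in the other arrays, and its groups overlapped. Among the 9808 tested genes with at least 7 probe sets, the probe set furthest from 0 lay below 0 in 53.5%. Without its furthest probe set, the difference of a gene ranged from -0.10 for Gsk3a to 0.061 for Tsc2. Akt2, Gsk3b and Tsc1 then turned to 0.022, 0.011 and 0.048.

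Whether the probe sets of a gene differed among themselves in their group difference was tested with limma's diffSplice F test. At 5% FDR 0 of the 8 genes had unequal probe sets, against 0.0375% of 16010 genes. Gsk3b had the smallest p of the 8, at 0.00468 before adjustment and 0.728 after, and Akt2 came next at 0.0644 before adjustment. An unadjusted p under 0.05 was reached by 1 of 8 genes, against 4.2% of all genes. For the other 6 the unadjusted p ran from 0.529 for Rictor to 0.997 for Pdpk1.

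The other genes of the pathway were taken from 8 lists, from which 136 of 143 written genes were tested. In limma 0 of the 136 passed 5% FDR, and 2 had an unadjusted p under 0.05, both lower (1.47% of the 136, where 1.68% of all genes were lower and 3.06% passed in either direction). The groups did not overlap in 5.88% of them, against 7.13% of all genes. Of these genes 5 were higher and 3 lower, and the shares over all genes were 3.4% higher and 3.73% lower. The upstream lists held no gene at an unadjusted p under 0.05. The median difference was 0.051 for 7 other mTORC2 subunits and regulators, with 5 above 0 and 2 below, and -0.034 for 10 PI3-kinase subunits, with 5 above and 5 below. The kinase gene Mtor itself differed by -0.10 (95% interval -0.43 to 0.23), and Deptor, which encodes an inhibitor of mTOR, by 0.10. Among the SGK kinases, relatives of AKT that PDK1 and mTORC2 also activate, Sgk2 stood at 9.21, 8.81 and 8.62 in the miR-143DOX mice and at 8.17, 8.88 and 8.28 in the control mice. The groups overlapped through control replicate 2, and the difference was 0.44 (limma, unadjusted p = 0.0541).

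The list of phosphatases and inhibitors that oppose AKT had 16 of 24 tested genes above 0 and a median of 0.046. None of them had an unadjusted p under 0.05, and 2 were higher without overlap. Osbpl8 and Keap1 were counted in this list too, and their place in it does not mean that they oppose AKT. Ppp2r5a, a regulatory subunit of protein phosphatase 2A, read 10.73, 10.63 and 10.75 in the miR-143DOX mice and 10.55, 10.38 and 10.43 in the control mice. All miR-143DOX mice lay above all control mice, at a difference of 0.25 (95% interval -0.031 to 0.53, limma, unadjusted p = 0.0763). Another subunit of this phosphatase, Ppp2r2d, differed by 0.29 and overlapped, and Trib3, a pseudokinase that binds AKT, differed by 0.34 and overlapped. Osbpl8, an oxysterol-binding protein gene proposed as the target of miR-143 in this setting, stood at 8.32, 8.54 and 9.01 in the miR-143DOX mice and at 8.21, 8.61 and 9.02 in the control mice. The groups spanned the same range, and the difference was 0.010 (95% interval -0.47 to 0.49).

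Direct AKT substrates other than GSK3 and TSC2 had a median of -0.011 over 22 genes, 9 above 0 and 13 below. Both pathway genes at an unadjusted p under 0.05 were in this list. Pfkfb2, an isoform of the enzyme that sets fructose 2,6-bisphosphate and so the rate of glycolysis, read 8.35, 8.39 and 8.50 in the miR-143DOX mice and 8.66, 8.91 and 9.30 in the control mice. No miR-143DOX mouse reached a control value, and the difference was -0.54 (95% interval -0.91 to -0.18), with a limma p of 0.00724 before adjustment and 0.9997 after. Ppargc1a, a coactivator of gluconeogenesis genes, read 6.89, 6.45 and 6.41 in the miR-143DOX mice and 7.64, 6.95 and 6.78 in the control mice, which overlapped, and also differed by -0.54 (limma, unadjusted p = 0.0278, adjusted p = 0.9997). Acly, the ATP citrate lyase gene of lipid synthesis, differed by 0.55 in the other direction with a standard error of 0.29.

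Partners and substrates of GSK3 lay between -0.12 and 0.21 over 20 genes, with a median of 0.018. Klc1, a kinesin light chain gene, differed by -0.12 and Jun, a transcription factor gene whose product GSK3 phosphorylates, by 0.085. The list of the TSC complex, RHEB and mTORC1 signalling had a median of -0.0071 over 33 genes, 15 above 0 and 18 below. Tbc1d7, the third subunit of the TSC complex, read 6.02, 5.98 and 6.15 in the miR-143DOX mice and 6.33, 6.43 and 6.21 in the control mice. The groups did not overlap, and the difference was -0.27 (95% interval -0.56 to 0.015, limma, unadjusted p = 0.0609). Sesn3, a sestrin gene whose product restrains mTORC1, read 8.15, 7.94 and 7.99 in the miR-143DOX mice and 7.91, 7.62 and 7.69 in the control mice, without overlap, at a difference of 0.29 (limma, unadjusted p = 0.0597). Ddit4l, whose product also inhibits mTORC1, differed by 0.39 at a dim mean level of 5.59. Among the 17 chaperone, scaffold and ligase genes of AKT the median was 0.053. Stub1, a ubiquitin ligase gene, was at 0.21 without overlap, and Appl2, an adaptor gene, at -0.22 with overlap.

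**Figure D4:**
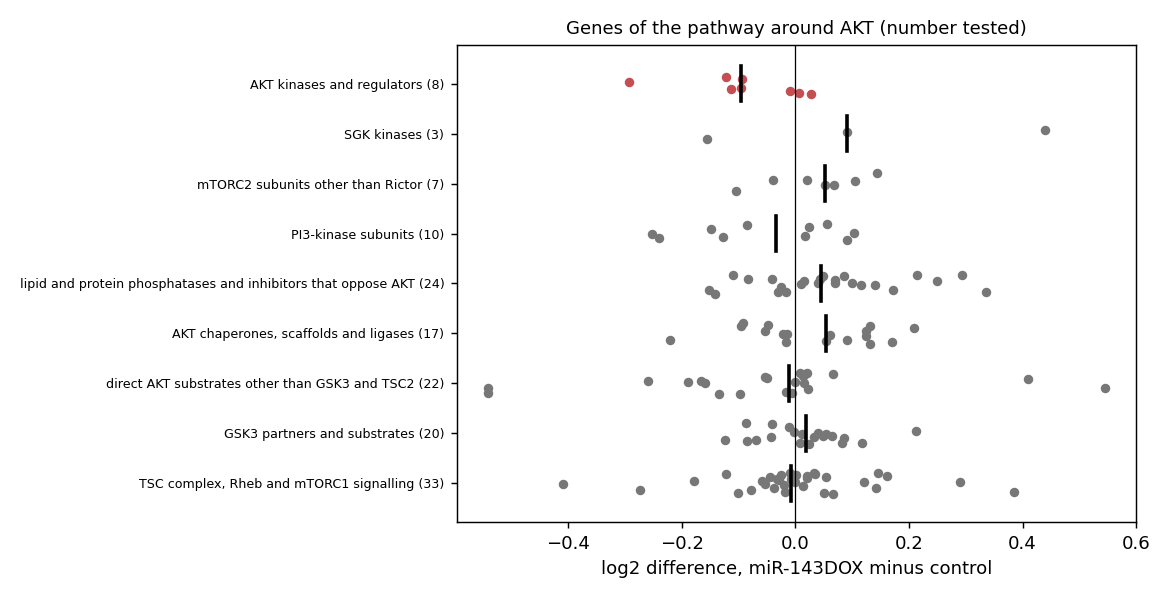
The difference of each tested gene (log2, miR-143DOX minus control), with the AKT kinases and their regulators in red at the top and 8 lists of other pathway genes in grey. Black bars mark the median of a list. The medians lie between -0.095 and 0.091, and the genes furthest from 0 are among the AKT substrates.

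Over the 6 arrays, the genes most like each of the 8 in their pattern had Pearson r of 0.987 to 0.998, the best of all genes tested. They were Ttc1 and BC024139 for Akt1, Tmem97 and Kctd20 for Akt2, Fam76b and 4933407H18Rik for Pdpk1, and Birc6 and A830080D01Rik for Rictor. For Gsk3a they were F12 and Fut11, for Gsk3b Srrm2 and Pcsk5, for Tsc1 Il10ra and Itga9, and for Tsc2 Insig1 and Tle3. These values describe the closest of 15312 genes over 6 arrays that share their normalization. None of the 8 was among the best matches of another. Of the 28 pairs among the 8 genes, 4 had r over 0.8. Besides Akt1 with Akt2, these were Pdpk1 with Gsk3b at 0.86 (Spearman rho 0.83), Pdpk1 with Gsk3a at 0.84 (0.60) and Rictor with Gsk3b at 0.83 (0.89). Without the 2 arrays farthest from the median of the first gene, r was 0.38, -0.29 and 0.66 over 4 arrays, with the same limit as for Akt1 with Akt2.

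The sign of most of these small differences turned with the processing or with a mouse left out. Of 16 other settings, 4 change the test but by construction not the difference (other filters on dim genes, the variance prior and the replicate block). In the 12 that can move it, Pdpk1 and Gsk3a lay below 0, between -0.19 and -0.044 for Pdpk1 and between -0.38 and -0.065 for Gsk3a. Each of the other 6 genes changed sign in at least 2 of the 12, Tsc2 only with a mouse left out. No gene of the 8 passed 5% FDR under any of the 16.

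**Figure D5:**
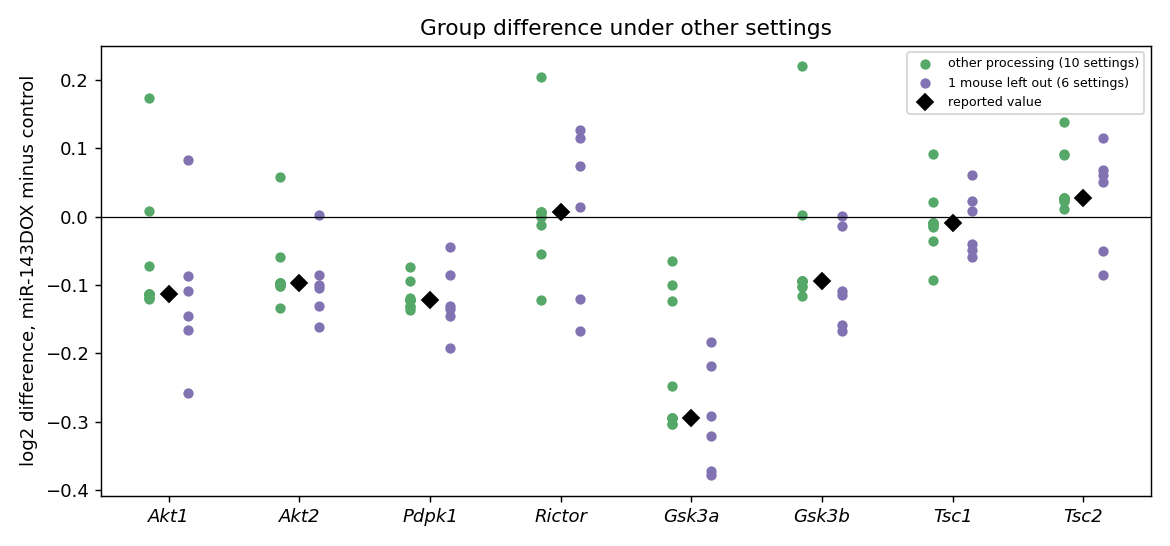
The difference of each gene (log2, miR-143DOX minus control) as reported (black), under 10 other ways of processing (green) and with each of 6 mice left out (purple). Of the 10, 4 leave the difference as reported by construction. In the other 6 and with each mouse left out Pdpk1 and Gsk3a lie below 0, and the other genes have values on both sides of 0.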

How the data were processed

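The authors deposited a table of log2 intensities for 234873 probe sets on 6 arrays; that the scale is log2 was taken from the values. Per the submitters' processing notes Partek was used, and no version is named. The background correction and normalization by the authors are not given in the sources used here. Precision is limited by the number of arrays, and values near background cannot be told from it, since no detection call was used. Percentiles of the arrays differed by up to 0.135, over the tolerance of 0.1, so the values were quantile normalized. A gene was the mean of the probe sets that the platform annotation (symbols of its own date) gives to it alone (212097 probe sets, 20416 genes). Genes in the lowest 25% of mean level (under 5.06) were left out. For the tests of probe sets, the lowest 25% of probe sets were left out by a cut of their own. The test between groups was limma 3.58.1 under R 4.3.3 (group only, two-sided, Benjamini-Hochberg over all features tested), probe sets of a gene with diffSplice, and balances within arrays with exact permutation. The steps were tested on simulated data.

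The genes and pathway lists were chosen with earlier results of these data known. Named were the 8 genes, Osbpl8 and the best matches in pattern (2 for each gene). Genes of the lists were named only from those with the smallest p in each list (up to 3), and not all of these were named. None of the PI3-kinase subunits was named. For some of the 8 genes the brightest probe set, that with the smallest p or that furthest from 0 was described. Of the 143 pathway genes, 11 were tested under another symbol of the same gene, and 7 were not analysed here. The labels do not say that mice with the same replicate number are pairs, so the main test did not pair them. Deviations of same-numbered arrays from their group means correlated at 0.11, 0.047 and 0.30, all above 0.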

Additional observations from a re-analysis of the deposited data

How the results depend on the processing

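With 3 mice a group, the 95% intervals of the 8 genes reach from 0.65 to 1.32 times the control level. In limma 0 of the 8 genes and 0 of all genes passed 5% FDR under 16 alternatives. Probe sets were tested under 9 of these (deposited values, no filter, replicate block, each mouse left out), where 0 probe sets of the 8 genes passed and 0 of the 8 genes had unequal probe sets. All genes at an unadjusted p under 0.05 numbered 469, from 299 to 1127 over the alternatives. Signs turned as follows, and the cause was not tested. On the deposited values Rictor stood at -3.8e-04. With the median over probe sets Rictor was -0.054, Gsk3b 0.22 and Tsc1 0.091, and the balances of Akt1 minus Akt2 and Tsc1 minus Tsc2 were 0.014 and 0.0012. With the brightest probe set Akt1 was 0.17, Akt2 0.058, Gsk3b 0.0017 and the Akt balance 0.12. With dim probe sets left out before the mean Rictor was -0.012 and the Akt balance 0.025. With array weights Akt1 was 0.0081, Rictor -0.12 and Tsc1 0.021.

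With 1 mouse left out at a time, differences ranged from -0.26 to 0.082 for Akt1, -0.16 to 0.0022 for Akt2, -0.17 to 0.13 for Rictor, -0.17 to 0.0014 for Gsk3b, -0.060 to 0.061 for Tsc1 and -0.085 to 0.11 for Tsc2. The balances ranged from -0.13 to 0.080 for Akt1 minus Akt2 and from -0.11 to 0.026 for Tsc1 minus Tsc2. The balance of Gsk3a minus Gsk3b stayed below 0 in its 11 alternatives, from -0.34 to -0.0060. The unadjusted limma p of Gsk3a was 0.0461 without miR-143DOX replicate 2 and above 0.05 in the other alternatives.

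Same-numbered arrays correlated in their deviations from the group means at 0.11, 0.047 and 0.30 over genes, and the first miR-143DOX array correlated better with the second control array, at 0.15. Between same-numbered mice Pdpk1 was lower in miR-143DOX in 3 of 3 (-0.25, -0.057 and -0.057). So was Gsk3b (-0.10, -0.021 and -0.16), and each of the other genes was lower in 1 or 2. With the replicate block the differences are unchanged by construction, the p of Gsk3a was 0.0697, 0 of the 8 genes passed and 734 genes had an unadjusted p under 0.05.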
